A study of Drosophila melanogaster with 2 samples.

Results

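The 10 nuclear receptor genes of the ecdysone cascade, EcR, usp, Eip75B, Eip78C, Hr3, Hr4, Hr39, ftz-f1, Hr38 and Hr78, were examined for peaks of the Drosophila protein CG10348. A peak was assigned to a receptor gene when its summit lay inside the gene, or when the nearest transcription start site (TSS) of any protein-coding gene was one of the receptor's and lay within 10 kb. The peaks were thus selected on their deposited positions, and the genes were chosen by a proposal made with these lists in view. Their numbers and places are given as descriptions with no test. By this rule 25 of the 1814 peaks of the conservative list belonged to the receptor genes. The other lists gave 24 of 1934 peaks (optimal list), 18 of 1284 (replicate 1) and 10 of 1027 (replicate 2).

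The data came from 1 group of 2 biological replicates: whole pupae aged 2 days, from transgenic flies that made CG10348 fused to eGFP. Chromatin was sheared by sonication and immunoprecipitated with an antibody against GFP, and the authors deposited peak lists on the dm6 assembly. Each region carried an irreproducible discovery rate (IDR), an estimate made from how consistently a pair of lists ranks regions. It gives the expected share of irreproducible regions among those ranked at least as well. There was no second condition, and no untagged group was analysed here. Per the deposited text the 2 replicates shared 1 control, which was not analysed here. Whole animals mix all tissues, so a peak cannot be assigned to a cell type. The fusion protein stands in for the native one, and where the fusion was expressed was not given in the sources used here. The lists held no read counts, so depth was unknown.

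Nuclear receptors are transcription factors that carry a zinc-finger DNA-binding domain and, in most cases, a ligand-binding domain. In flies the steroid ecdysone binds the heterodimer of EcR and Usp, which switches on early genes. Several of these encode further receptors, which pass the signal on in timed steps through moulting and metamorphosis. Many of these genes are long and have several promoters that give rise to isoforms with different amino-terminal parts.

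The windows below show the DNA under the strongest conservative peaks of Hr4, Eip75B, ftz-f1 and Hr38. Each reaches 50 bases to either side of the summit base, and was read from the RefSeq genome of the dm6 assembly on the plus strand. They are shown because base composition at the summits is described further on. Capitals mark the longest unbroken run of A and T in the window, or the first of them where runs tie.
Hr4, chrX:1963903-1964003: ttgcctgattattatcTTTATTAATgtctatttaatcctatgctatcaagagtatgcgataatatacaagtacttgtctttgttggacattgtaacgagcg
Hr4, chrX:1988859-1988959: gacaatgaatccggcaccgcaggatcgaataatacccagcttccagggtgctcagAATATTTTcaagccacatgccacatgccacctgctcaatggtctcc
Eip75B, chr3L:18009133-18009233: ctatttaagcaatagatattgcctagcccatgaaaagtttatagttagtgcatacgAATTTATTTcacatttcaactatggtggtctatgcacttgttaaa
ftz-f1, chr3L:18782243-18782343: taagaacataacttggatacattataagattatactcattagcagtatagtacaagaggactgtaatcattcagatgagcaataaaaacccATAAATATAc
Eip75B, chr3L:17978634-17978734: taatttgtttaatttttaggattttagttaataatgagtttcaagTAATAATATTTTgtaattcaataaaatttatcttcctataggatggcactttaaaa
ftz-f1, chr3L:18756707-18756807: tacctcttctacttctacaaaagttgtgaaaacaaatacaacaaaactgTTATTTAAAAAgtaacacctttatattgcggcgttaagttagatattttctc
Hr38, chr2L:20699533-20699633: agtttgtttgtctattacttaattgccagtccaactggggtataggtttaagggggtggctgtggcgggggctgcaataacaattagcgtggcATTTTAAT
The runs in capitals ranged over 8 to 12 bases in these windows. Over all 25 windows in the receptor genes the median longest run was 8 bases, against 9 bases over the 1799 conservative peaks on the 6 main chromosome arms.

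Peaks lay in 6 of the 10 genes. Hr4 held 6 conservative peaks, Hr3 and ftz-f1 held 5 each, EcR and Eip75B held 4 each, and Hr38 held 1. No conservative peak was assigned to usp, Eip78C, Hr39 or Hr78. Of all 13945 protein-coding genes, 10.2% had a conservative peak by the same rule. The optimal list also had peaks at 6 of the receptor genes (background 10.6%), replicate 1 at 5 (background 7.72%) and replicate 2 at 5 (background 6.45%). Long genes offer more room for summits: 8 of the receptor genes span at least 20 kb, 6 of them had a peak, and 37.1% of all 1013 protein-coding genes of that length had one. The rule chose on these same peaks, so nothing is read from the difference between these shares.

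All 25 summits lay inside the span of the gene, which added up to 445 kb, or 5.61 peaks per 100 kb of receptor gene against 1.34 per 100 kb of the main arms. Hr3 was the densest at 15 peaks per 100 kb, followed by ftz-f1 at 9.86, Hr4 at 9.09, EcR at 4.93, Eip75B at 3.52 and Hr38 at 3.21. By number of peaks, 5 protein-coding genes had more than Hr4, 10 had more than Hr3 or ftz-f1, and 26 had more than EcR or Eip75B. The counts of Hr3 and ftz-f1 each include a pair of close summits, 200 and 207 bp apart, that rested on the same replicate regions. The density and the place by number of these genes therefore depend on counting both summits of the pair. The genes nearest to Hr4 in number were Tlk, shep, sbb and CHES-1-like with 6 peaks each, whose strongest signals were 296, 262, 238 and 235, followed by Raf, with 5 peaks and a strongest signal of 411. Raf was 1 of 16 genes with 5 peaks, Hr3 and ftz-f1 among them, and ties were ordered by the strongest signal.

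Within the genes the peaks lay mostly deep in introns. Of the 25 summits, 23 were intronic and 2 lay within 1 kb of a TSS. Over all conservative peaks, 36.0% were intronic and 47.8% lay within 1 kb of a TSS. The genes with these 25 summits span 31.1 to 114 kb, and the shares were not matched for gene length. The median distance from a summit to the nearest TSS of its receptor gene was 9362 bp, with a range of 42 to 23159 bp. Over all conservative peaks the median distance to a TSS was 1120.0 bp. A distance over 5 kb was found for 18 of the 25 summits, and for 22.0% of all conservative peaks. Many introns of these genes lie between alternative promoters: 16 of the 25 summits fell between the first and last TSS of their gene, which is near the 57.0% found for all 1191 conservative summits inside protein-coding genes.

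**Figure D1:**
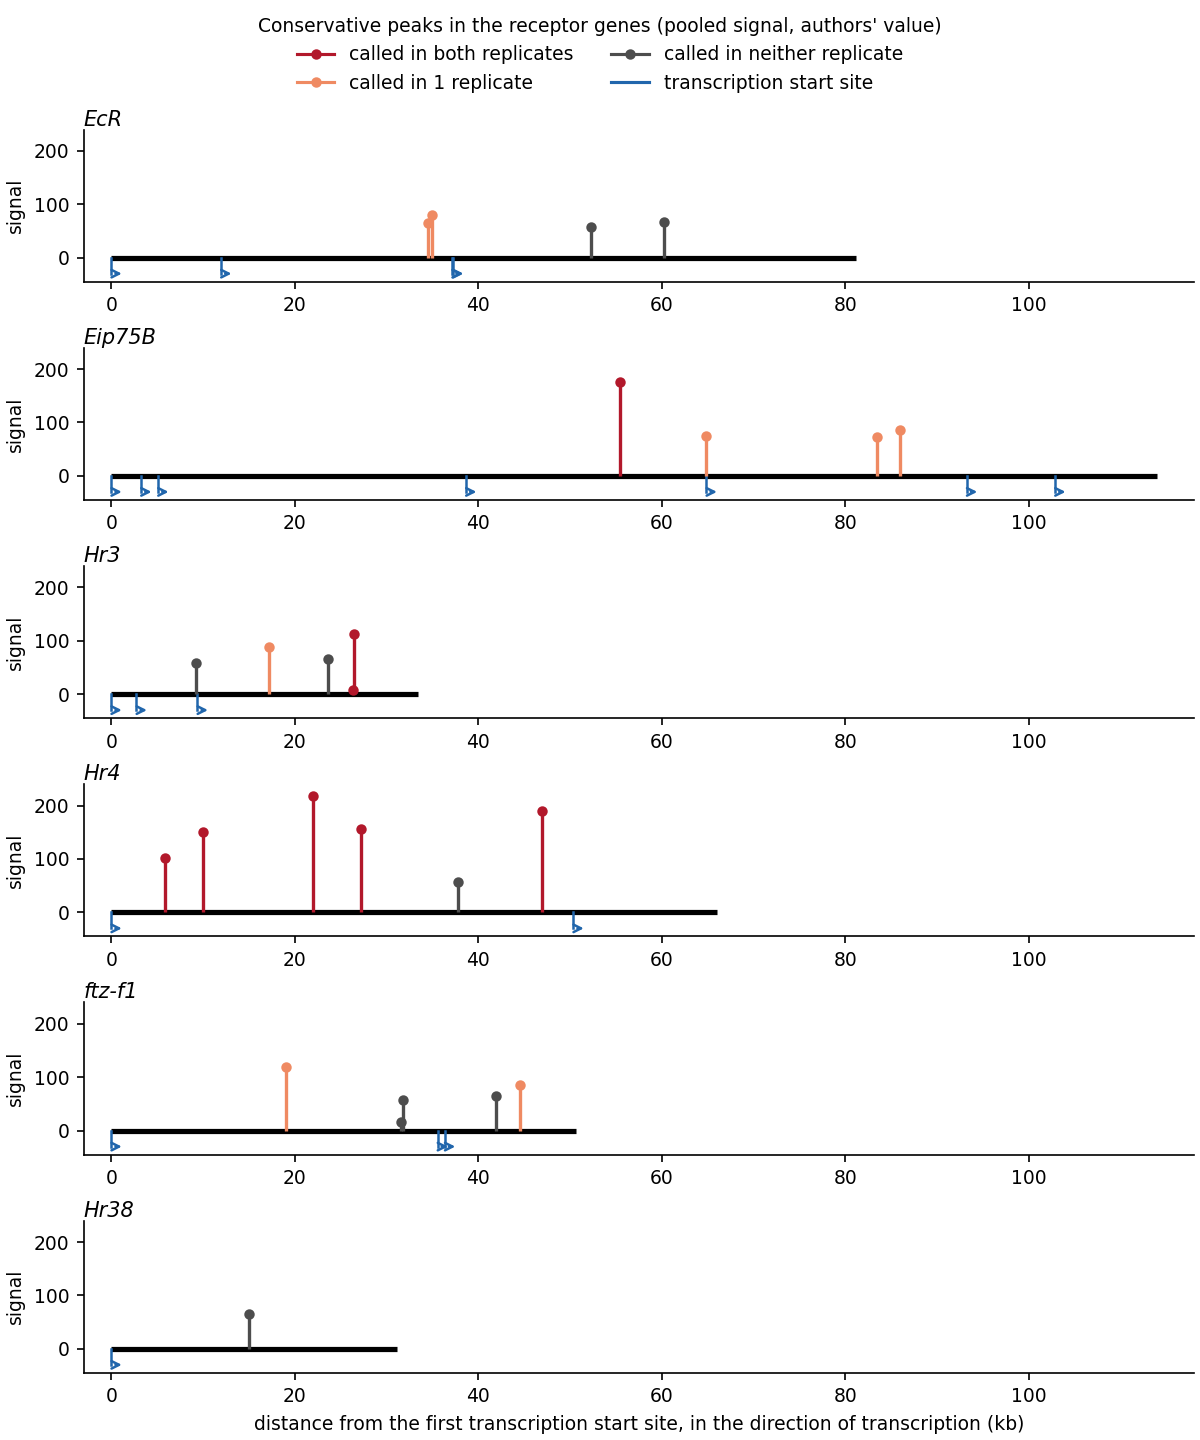
Conservative peaks along the 6 receptor genes that held one. The x axis is the distance in kb from the first TSS in the direction of transcription, the height of each stem is the pooled signal (the authors' value), its colour the number of replicate lists with the peak, black bars are the gene spans and arrows the annotated TSSs. The 6 Hr4 peaks stood between its TSSs, and the Eip75B peak beside the fifth TSS of that gene was 1 of the 2 peaks within 1 kb of a TSS.

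**Figure D2:**
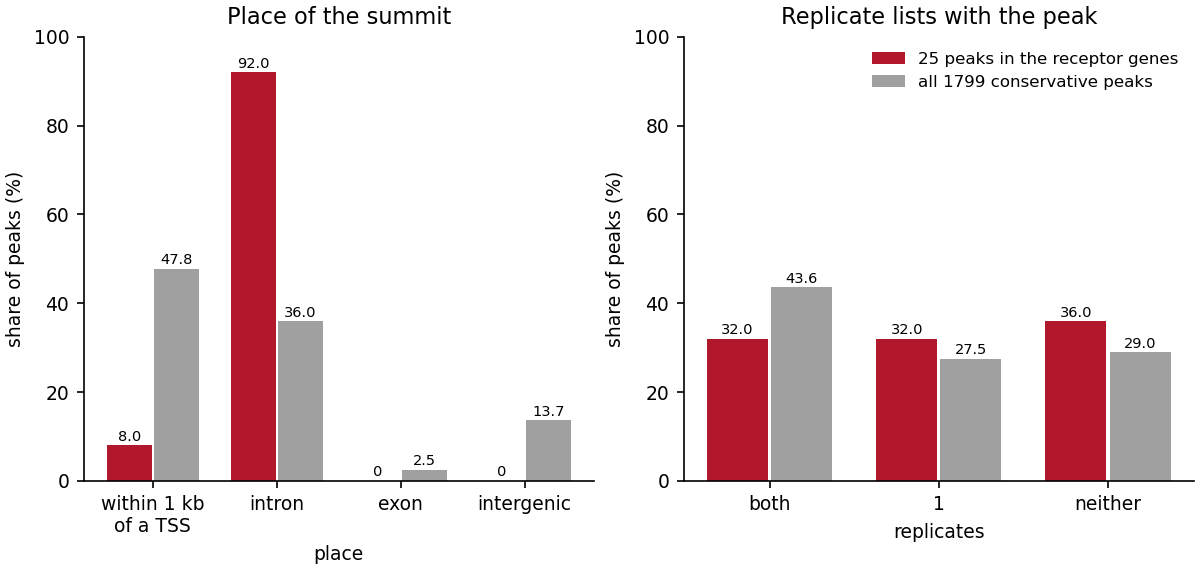
Share of peaks in percent by the place of the summit and by the number of replicate lists that held the peak, for the 25 peaks in the receptor genes and for all 1799 conservative peaks on the main arms. In the receptor genes 92.0% of summits were intronic, against 36.0% over all, and 32.0% were called in both replicates, against 43.6% over all. The shares were not matched for gene length.

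Signal is the authors' peak strength, whose scaling was not stated, so each list may have its own scale. Differences between the replicates given below are those of the deposited values, and equal scaling of the 2 lists was not tested. The median pooled signal was 74.7 in the receptor genes and 86.6 over all conservative peaks. Of the 25 peaks, 10 exceeded that overall median and 5 exceeded the upper quartile of 128. The highest signal, 217 in Hr4, compares with 1064 for the highest of all. The authors' score, a scaled IDR with a ceiling of 1000, was at the ceiling for 16 of the 25 peaks and for 75.3% of all.

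A peak was counted as called in a replicate when that replicate's own thresholded list held a peak overlapping it by at least 1 bp. Of the 25 peaks, 8 were called in both replicates, or 32.0%, against 43.6% of all conservative peaks. Another 8, or 32.0%, were called in 1 replicate, against 27.5% of all. Of these 8, 6 were called in replicate 1 and 2 in replicate 2. Over all conservative peaks, 314 were called in replicate 1 alone and 180 in replicate 2 alone. The remaining 9, or 36.0%, were called in neither, against 29.0% of all. The 8 peaks with both replicates were 5 in Hr4, 2 in Hr3 and 1 in Eip75B, and both Hr3 peaks rested on the same region of each replicate.

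Signals of each replicate were also read from its ranked list, which includes regions under the threshold. For 22 of the 25 peaks both replicates had such a region. The log2 ratio of replicate 1 to replicate 2 signal had a median of 0.26 with an SD of 0.43 over these peaks, and ranged from -0.21 to 1.26. It was above 0 at 16 peaks and below 0 at 6. The 16 include both summits of the close Hr3 pair and of the close ftz-f1 pair. Each pair rested on the same replicate regions and so had a single ratio. Over 1779 conservative peaks with both values the median was 0.28 with an SD of 0.47.

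**Figure D3:**
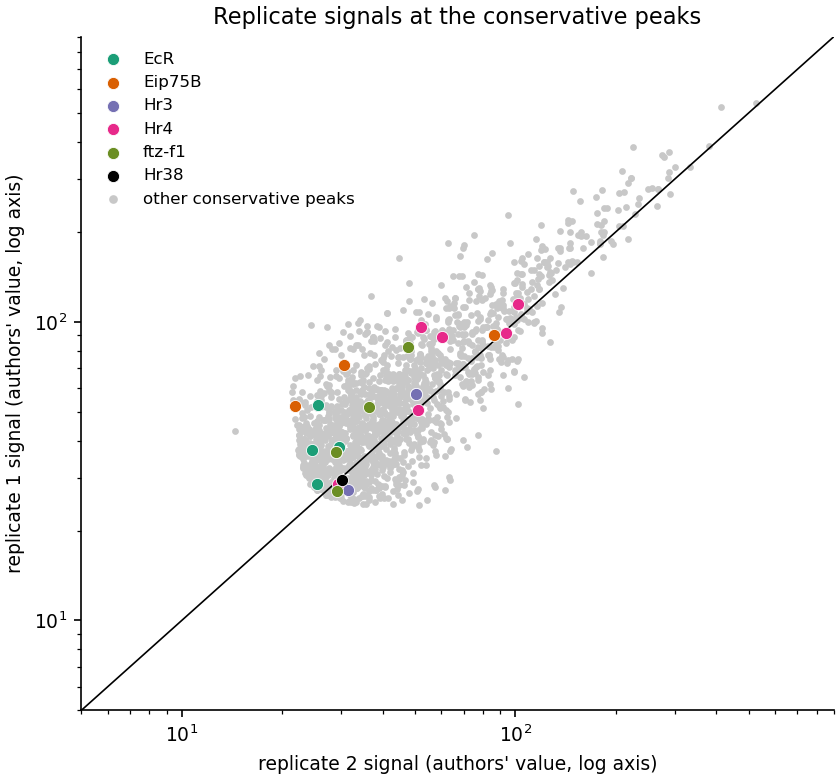
Replicate 1 signal against replicate 2 signal at each conservative peak with a region in both ranked lists (authors' values, both axes logarithmic), with the receptor genes in colour, other peaks in grey and equality as a line. The 22 coloured peaks lay on both sides of the line, 16 above it, among the other peaks. The points of the close Hr3 pair of summits coincide, as do those of the close ftz-f1 pair. The highest of them was the Hr4 peak with 115 in replicate 1 and 102 in replicate 2.

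EcR encodes the ecdysone receptor itself, and its 81.2 kb gene on 2R (FBgn0000546) has 4 annotated TSSs. The strongest EcR peak, at chr2R:6133915-6134250, had a pooled signal of 79.0, with 52.8 in replicate 1 and 25.6 in replicate 2. It lay 2161 bp upstream of the TSS shared by EcR-RB and EcR-RC. A second peak 542 bp away, 2703 bp upstream of the same TSS and 2678 bp from a TSS of CG14589, had a pooled signal of 65.2, with 38.2 in replicate 1 and 29.6 in replicate 2. Both lay in an intron of the transcripts that start farther upstream, EcR-RA, EcR-RD and EcR-RE, and both were called in replicate 1 and not in replicate 2.

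The other EcR peaks lay downstream of all 4 TSSs, in an intron shared by the 6 transcripts. One, 15076 bp past the EcR-RG start, had a pooled signal of 56.8, with 28.7 in replicate 1 and 25.4 in replicate 2. The other, 23056 bp past it, had a pooled signal of 67.0, with 37.1 in replicate 1 and 24.5 in replicate 2. Neither was called in a replicate's own list. No EcR peak reached the overall median of 86.6, none was called in replicate 2, and the deposited signal was higher in replicate 1 at all 4.

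The partner gene usp, which encodes the fly counterpart of the vertebrate RXR receptors, spans 3.51 kb on X (FBgn0003964). None of the 4 thresholded lists held a peak at usp. The best of the 5 ranked regions in it had a pooled signal of 41.6 and an IDR of 19.6%, and its summit lay 157 bp upstream of the usp-RA start. The nearest conservative peak, with a signal of 213, lay 7974 bp outside the gene and 165 bp from a TSS of moody, to which the rule assigned it.

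Eip75B is an early ecdysone-response gene whose heme-binding receptor product counteracts Hr3. It spans 114 kb on 3L (FBgn0000568) and each of its 7 transcripts has a TSS of its own. The strongest peak, chr3L:18009162-18009246, had a pooled signal of 176, with 90.3 in replicate 1 and 86.3 in replicate 2, and was the only Eip75B peak called in both. Its summit lay 9362 bp upstream of the Eip75B-RC start, in the first intron of Eip75B-RB and Eip75B-RG and the third of Eip75B-RE and Eip75B-RF. At 85 bp it was narrower than the 336 bp that 22 of the 25 peaks and 89.4% of all conservative peaks measured.

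One Eip75B peak sat at a promoter. Its summit was 42 bp upstream of the Eip75B-RC start, with a pooled signal of 74.7, 52.2 in replicate 1 and 21.8 in replicate 2. Replicate 1 alone called it, and the optimal list did not hold it. The remaining pair lay in the intron upstream of the Eip75B-RA start, at 7245 and 9803 bp from it. The nearer had a pooled signal of 86.8, with 71.5 in replicate 1 and 30.6 in replicate 2, and only replicate 1 called it. The farther had a pooled signal of 73.6 and 43.5 in replicate 2, which called it, with no ranked region in replicate 1. All 4 Eip75B peaks thus lay between alternative TSSs, and only the 85 bp peak had nearly equal signals in the replicates.

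Eip78C, which encodes a receptor related to that of Eip75B, spans 39.9 kb on 3L (FBgn0004865) and had no peak in the conservative, optimal or replicate 1 lists. Replicate 2 alone had a peak there, with a signal of 44.4 and a summit 3084 bp past the Eip78C-RA start, in its first intron. No ranked region of replicate 1 overlapped it. In the pooled ranking the best Eip78C region, 13325 bp past the Eip78C-RB start, had an IDR of 9.03%.

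Hr3 encodes a receptor that represses early genes and activates ftz-f1 in prepupae. Its gene spans 33.4 kb on 2R (FBgn0000448) with 3 TSSs, the last of which, shared by Hr3-RA, Hr3-RF and Hr3-RH, is also annotated as a start of CG46321. Summits in this gene also lay inside CG12912 and, for those past the last TSS, inside CG46321, so the annotation places these peaks in more than 1 gene. The strongest Hr3 peak, chr2R:10210636-10210971, had a pooled signal of 113, with 57.2 in replicate 1 and 50.3 in replicate 2, and both called it. It lay 17153 bp past the last Hr3 TSS and inside lncRNA:CR46322. The nearest TSS of any protein-coding gene, 11093 bp away, was that of CG34221. A second conservative peak with its summit 200 bp away had a pooled signal of 6.84 and overlapped the same replicate regions. CG34221 also had the nearest protein-coding TSS to that summit and to the one 14233 bp past the last Hr3 TSS.

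The other Hr3 peaks had less replicate support. The peak 7844 bp past the last TSS had a pooled signal of 87.5 and was called in replicate 1 with 62.4, with no overlapping ranked region in replicate 2. The peak 14233 bp past it had a pooled signal of 66.2, with 33.1 in replicate 2, was called in neither and was not in the optimal list. One peak sat at the promoter, 147 bp upstream of the last TSS, with a pooled signal of 58.0, 27.4 in replicate 1 and 31.5 in replicate 2. That promoter peak was called in neither replicate and was absent from the optimal list. The optimal list instead held Hr3 peaks of 77.3 and 62.4, both called in replicate 1 only, with 67.9 and 57.0 there against 20.6 and 9.80 in replicate 2.

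Hr4 encodes a receptor that acts with Hr3 in the prepupal timing of ecdysone responses. Its gene spans 66.0 kb on X (FBgn0264562). It has 2 TSSs: 7 of the transcripts start at position 1941940, and Hr4-RE and Hr4-RF start at position 1992300. All 6 Hr4 peaks lay between these starts, in introns of the longer transcripts, and no summit was within 1 kb of either. The strongest, chrX:1963849-1963997, had a pooled signal of 217, with 115 in replicate 1 and 102 in replicate 2. It lay 22013 bp past the first start, and 8.67% along the signal ranking of the conservative list.

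The second Hr4 peak, chrX:1988842-1988946, was the one nearest to the downstream promoter, 3391 bp upstream of the Hr4-RE and Hr4-RF start. Its pooled signal was 189, with 92.0 in replicate 1 and 93.7 in replicate 2. These top peaks were 149 and 105 bp wide and, with the strongest Eip75B peak, were the 3 of the 25 narrower than 336 bp. Over the whole list, peaks narrower than this had a median signal of 268, against 81.1 for those of 336 bp.

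The third Hr4 peak, 27.2 kb from the first start, had a pooled signal of 156, with 95.9 in replicate 1 and 52.3 in replicate 2. The fourth, 9.98 kb from it, had a pooled signal of 151, with 89.1 in replicate 1 and 60.4 in replicate 2. The fifth, 5.81 kb from it, had a pooled signal of 102, with 50.5 in replicate 1 and 51 in replicate 2. These 5 Hr4 peaks were called in both replicates, all 5 exceeded the overall median signal, and 4 of them exceeded the upper quartile.

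The sixth Hr4 peak, 37.8 kb from the first start, had a pooled signal of 57.5, with 28.6 in replicate 1 and 29.4 in replicate 2, and was called in neither. The optimal list held a further peak beside it with a signal of 43.8, called in replicate 1 with 38.0 against 15.9 in replicate 2. Neighbouring Hr4 summits of the conservative list were 4.17 to 12 kb apart.

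**Figure D4:**
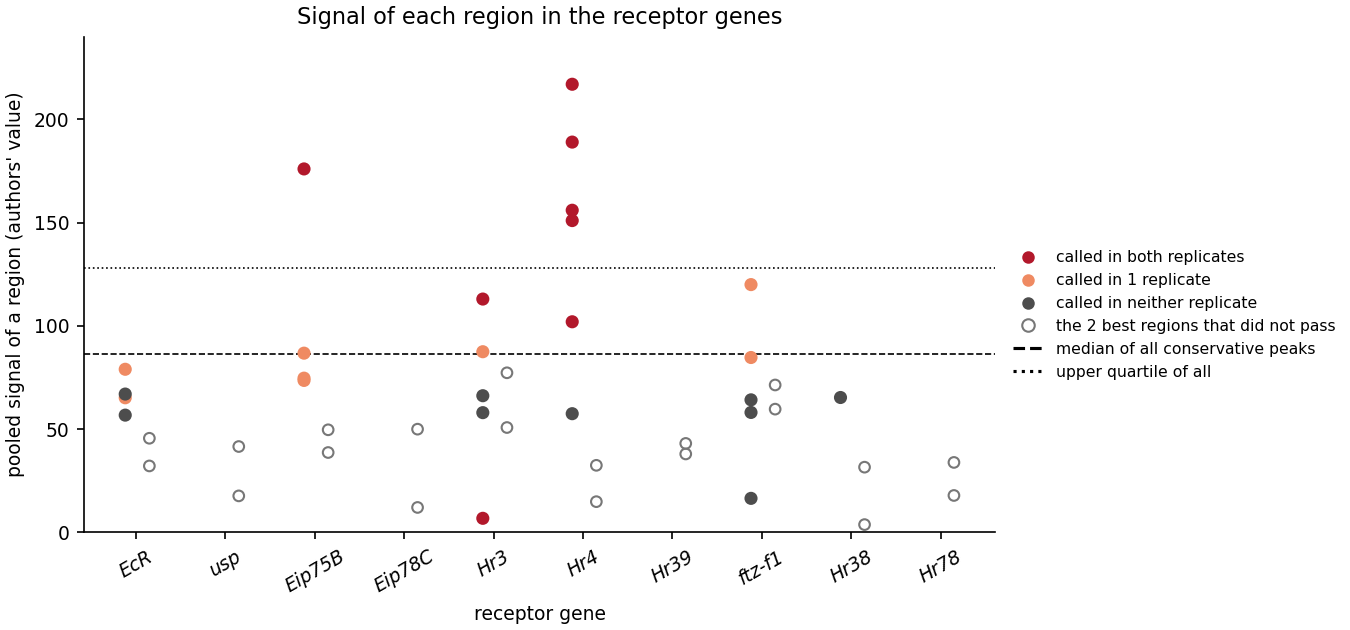
Pooled signal (the authors' value) of every conservative peak in each receptor gene, coloured by the number of replicate lists that held it, beside the 2 best ranked regions of the gene that did not pass the threshold (open circles). Lines mark the median of 86.6 and the upper quartile of 128 over all conservative peaks. Hr4 held 4 of the 5 peaks above the upper quartile and Eip75B the other.

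ftz-f1 encodes a receptor that makes tissues competent for the late prepupal response, and its gene spans 50.7 kb on 3L (FBgn0001078) with 3 TSSs. The strongest ftz-f1 peak, chr3L:18782125-18782460, had a pooled signal of 120.0, with 82.6 in replicate 1 and 47.8 in replicate 2, and only replicate 1 called it. It lay in intron 2 of ftz-f1-RB, 16549 bp upstream of the ftz-f1-RC and ftz-f1-RD start, and inside lncRNA:CR45939. In the same intron, 3722 and 3929 bp upstream of that start, stood a pair of summits 207 bp apart with pooled signals of 58.1 and 16.5. Both rested on the same replicate regions, with 36.5 in replicate 1 and 28.9 in replicate 2, and were called in neither.

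Downstream of all ftz-f1 starts lay the last pair. The peak 8199 bp past the ftz-f1-RA start had a pooled signal of 84.7, with 52.0 in replicate 1 and 36.4 in replicate 2. It was called in replicate 2 only, although the deposited signal was higher in replicate 1, and a TSS of Atg3 was slightly nearer at 8070 bp. The peak 5574 bp past the ftz-f1-RA start had a pooled signal of 64.2, with 27.2 in replicate 1 and 29.1 in replicate 2, and was called in neither. No ftz-f1 peak was called in both replicates.

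Hr38 encodes the fly relative of the vertebrate NR4A receptors and can pair with Usp. It spans 31.1 kb on 2L (FBgn0014859). Its only peak, chr2L:20699415-20699750, had a pooled signal of 65.8, with 29.5 in replicate 1 and 30.2 in replicate 2. It lay 15005 bp past the single start, in the first intron of Hr38-RB and the second of Hr38-RD. Both pooled lists held it and neither replicate called it.

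Hr39, which encodes a receptor related to that of ftz-f1, and Hr78, which encodes an orphan receptor, had no peak in any of the 4 thresholded lists. The best Hr39 region had a pooled signal of 43.1 and an IDR of 6.43%, 2970 bp past its single start. The best Hr78 region had a signal of 33.9 and an IDR of 50.9%, 46 bp past the Hr78-RF start. The nearest conservative peak to Hr39 was 68.8 kb outside the gene, and that to Hr78 was 10.1 kb outside.

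The conservative list was cut at a score of 830, an IDR of 1.00%. Just inside it stood the Eip75B-RC promoter peak with a score of 845 and an IDR of 0.921%, and the EcR peak of signal 56.8 with a score of 859 and an IDR of 0.854%. Just outside stood a ftz-f1 region of signal 71.4 with a score of 823 and an IDR of 1.04%. Hr3 regions of signal 77.3 and 50.8 followed with scores of 776 and 769. The ftz-f1 region and the Hr3 region of 77.3 were in the optimal list and called in replicate 1. Signals on either side of the threshold overlapped.

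Summit windows in the receptor genes were poorer in G and C than windows 300 bp away, and differed less from windows farther out. The mean G and C content of the window around the summit (50 bp to either side) was 39.5 ± 12.1% (SD, n = 25 peaks), against 47.6 ± 6.50% in windows centred 300 bp to each side. Over all 1799 conservative peaks the values were 35.1 ± 10.6% at the summit and 44.8 ± 6.84% in the flanks. Ranked regions that did not pass averaged 46.7% at their summits. The summit was below its flanks at 19 of the 25 peaks and at 78.8% of all conservative peaks. The flanks at 300 bp were near the top of the profile in the receptor genes, with 50% to the left and 45.1% to the right. At 1000 bp the mean was 42.5% to the left and 40.1% to the right, and the standard error at the summit was 2.42%. The lowest means farther out were 39.9% at 850 bp to the left and 39.0% at 950 bp to the right. The SDs and the standard error are over peaks, which are not replicates.

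The lowest content was 18.8%, in the Eip75B peak 7245 bp upstream of the Eip75B-RA start, whose window above holds a capitalised run of 12 bases and another of that length. The strongest Hr3 peak had 21.8% at the summit against 57.4% in its flanks. The top Hr4 peak had 31.7% against 51%, while the second Hr4 peak had 51.5% against 54.0%. The highest content was 63.4%, in an EcR peak called in neither replicate, with 37.6% in its flanks.

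**Figure D5:**
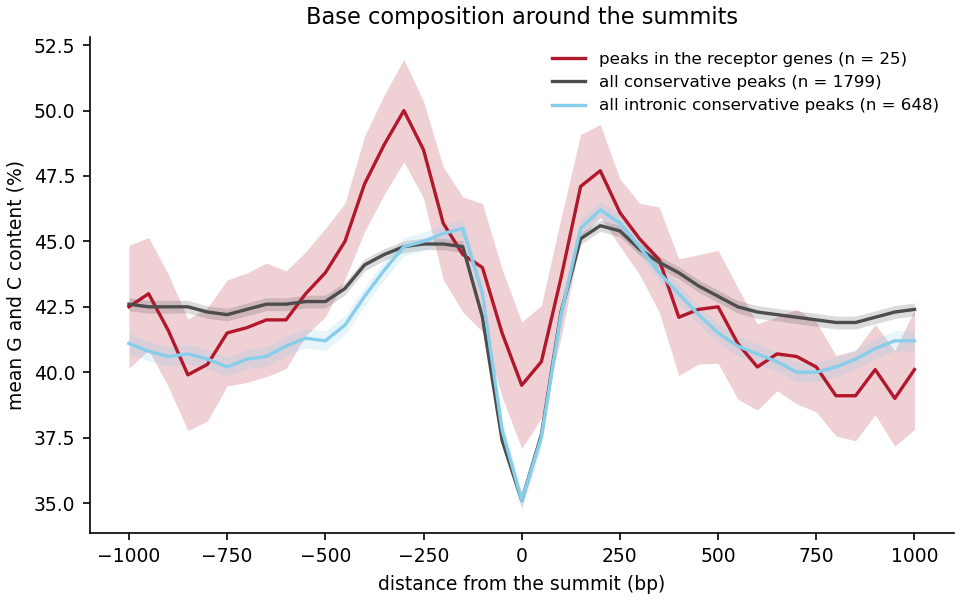
Mean G and C content in percent of windows reaching 50 bp to either side against the distance in bp from the summit, for the 25 peaks in the receptor genes, all 1799 conservative peaks and the 648 intronic ones, with bands of 1 standard error over peaks. The curves of all and of intronic peaks had their lowest value at the summit, 35.1% in both. The curve of the receptor genes was 39.5% at the summit and as low as 39.0% at 950 bp to the right.

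Short sequences were sought on both strands of the same windows. The sequence AGGTCA, a core to which nuclear receptors bind, occurred in 1 of the 25 windows, in ftz-f1, and in 2.06% of all conservative windows. Its extended form AAGGTCA, which contains it, occurred in none of the 25 and in 1.06% of all. AAATAT occurred in 8 of the 25 windows and in 30.2% of all. TTAAAA occurred in 5 and in 32.1% of all, TAATTA in 2 and in 9.06%, and GATAA in 4 and in 21.7%. GAGAG occurred in 7 of the 25, in EcR, Eip75B, Hr3 and Hr4, against 9.34% of all conservative windows and 12.4% of regions that did not pass. In the windows 300 bp to the left and right GAGAG occurred in 3 and 4 of the 25. These counts are small and a match is not a binding site.

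Among the 11 other nuclear receptor genes of the fly, 2 had a conservative peak, against the background of 10.2%. These were Hnf4, with a signal of 90.7, 52.5 in replicate 1 and 34.6 in replicate 2, and eg, with 64.1, 28.2 in replicate 1 and 33.1 in replicate 2. Both lay within 1 kb of a TSS, at 324 bp in Hnf4 and 527 bp in eg. The same held for 2 of the 25 peaks in the ecdysone receptors and for 47.8% of all conservative peaks. Hnf4 spans 22.4 kb and eg 8.90 kb, against 31.1 to 114 kb for the ecdysone receptor genes with a peak. The Hnf4 peak was called in replicate 1 only and the eg peak in replicate 2 only.

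Of 38 other ecdysone pathway genes, for hormone synthesis, transport, cofactors and targets, 11 had a conservative peak (28.9%), with 23 peaks in all. The background was 10.2% of all protein-coding genes and 37.1% of those of at least 20 kb. Several of the 11 are long, such as Eip63E at 94.8 kb, br at 89.7 kb and tai at 83.4 kb. Of the 23 peaks, 19 were intronic, against 36.0% of all conservative peaks, and 8 were called in both replicates, against 43.6% of all. ImpL2, which encodes a secreted insulin-binding protein, had the strongest at 356, with 182 in replicate 1 and 179 in replicate 2. The broad gene br, an early gene for zinc-finger factors, had 156, and the early gene Eip74EF had 4 peaks with a strongest signal of 108. The br summit lay 3423 bp from the nearest br TSS and within 1 kb of a TSS of another protein-coding gene. E23, an ecdysone-induced transporter gene, had 209, and gce, a juvenile hormone receptor gene, had 209.7. The coactivator gene tai had 121, the corepressor gene Smr had 71.7 with 4 peaks, and the ecdysone importer gene Oatp74D had 56.4. Eip63E had 179.7, vri 92.7 and Eip93F 77.1. The strongest peaks of ImpL2, E23, gce, br and Eip63E were called in both replicates. Those of tai, Eip74EF and vri were called in replicate 1 only, and those of Smr and Eip93F in replicate 2 only. The Oatp74D peak was called in neither, and the optimal list had no peak at that gene.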

How the data were processed

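ChIP-seq of CG10348-eGFP was performed on whole pupae in 2 biological replicates, numbered in the labels. The authors deposited ranked and IDR-thresholded peak lists on dm6, per the labels, derived from the replicates' alignments and 1 control, per the deposited text; the aligner and peak caller are not given in the sources used here. The pooled samples have a conservative list and a list called optimal here, and each replicate has its own. Whether their peaks were called on pooled reads is not given in the sources used here. The deposited signal is the strength the authors gave each peak, on a scale not stated. The deposited score is the authors' scaled IDR, from 830 to 1000 in the conservative list, and the ranked lists hold the deposited −log10 of the IDR. Depth is unknown because no read counts are in these lists, so no interval from counts was made. Nothing was tested: there is 1 group, and the rule used the same lists. The p-value columns were not used.

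Summits were the deposited start plus the deposited offset, given from 1. Genes and TSSs came from Ensembl release 115 (BDGP 6.54) and sequence from the RefSeq genome of the same assembly, and 13945 protein-coding genes on 6 arms were used. Replicate support needed an overlap of at least 1 bp, and log2 ratios were computed here from the replicates' ranked signals. Python 3.11.15, pandas 2.3.3 and numpy 2.4.6 were used, and the assignment was tested on simulated data, where 200 of 200 planted summits were recovered. Peaks are not independent replicates of a condition.

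The members and lists were chosen with earlier results of these data known. The genes named are the 10 receptors, those of the other receptor and pathway lists with a conservative peak, 5 genes nearest to Hr4 in number of peaks (ties ordered by the strongest signal), and genes over a summit or with a nearer TSS. The name moody was added after its values were seen. Of the pathway names, 38 of 38 matched, 3 of them through older names (phm, Eip71CD and Eip55E). Alternatives were the other lists, a score of 1000, other distances, overlaps and windows, and summits within 500 bp counted once.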

Additional observations from a re-analysis of the deposited data

How the results depend on the processing

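Of 51 values computed under alternatives, 33 stayed within 1.5 times the reported count, or within the SD between the replicates' values (over peaks for the log2 ratio), 18 moved further and 0 changed sign. Only the log2 ratio could have changed sign, since counts, signals and G and C content cannot be negative. Some of the 33 could not move. All 25 summits lay inside the receptor genes, so other TSS distances left those counts unchanged. The optimal list carried the same deposited signal for the strongest peak of each gene. The conservative list gave 25 peaks in the receptor genes, leaving out a replicate by using the other's list gave 10 to 18, and a score of 1000 left 16. Those lists hold fewer peaks. The number of receptor genes with a peak was 5 to 6 under every alternative run, but not always the same genes. The replicate 2 list had no peak at EcR or Hr38 and had 1 at Eip78C, which had no conservative peak. Peaks within 1 kb of a TSS of a receptor gene numbered 2, against 0 in the optimal list, 0 at a score of 1000 and 0 to 1 in the replicate lists. The median signal of 74.7 was 94.3 at a score of 1000 and 51.7 to 59.8 in the replicate lists, whose signals are on their own scale. Mean G and C content of 39.5% was 37.9% in the optimal list, 35.7% at a score of 1000, 41.0% in windows reaching 100 bp to either side and 35.2 to 36.4% in the replicate lists. The 11 other pathway genes with a peak were 7 to 8 in the replicate lists, and the 2 other receptor genes were 1 at a score of 1000 and 1 in each replicate list. Peaks called in both replicates numbered 7 instead of 8 when 50% overlap or summits within 100 bp were needed. Counting summits within 500 bp once gave 23 peaks. No paired analysis was possible because there is only 1 group. Depth was unknown, so a gene without a peak is one where no peak passed, and absence of binding was not shown.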

Other observations

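Base composition at the summits differed with replicate support, a pattern noticed after the values were seen and not tested. The 9 peaks in the receptor genes that neither replicate called had a mean G and C content of 48.2 ± 10.5% (SD over peaks), and 4 of the 9 were below their flanks. The 8 called in 1 replicate had 30.6 ± 6.29%, and all 8 were below their flanks. The 8 called in both had 38.7 ± 12.1%, and 7 of these were below their flanks. The exception was the Hr3 peak of pooled signal 6.84, with 57.4% against 46.5% in its flanks. That peak rested on the same replicate regions as the strongest Hr3 peak. Over all conservative peaks the means were 40.1 ± 12.1% for the 521 called in neither, 34.1 ± 9.73% for the 494 called in 1 and 32.5 ± 8.61% for the 784 called in both. Signal moved with support as well. The median pooled signal in the receptor genes was 58.1, 81.8 and 153 for peaks called in neither, 1 and both. Over all conservative peaks it was 60.7, 80.4 and 136. Signal and support come from the same 2 replicates, so they are not independent measures and nothing is read from this relation.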
